A study of Arabidopsis thaliana with 8 samples.

Results

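The genes described here encode 10 proteins of the plant nuclear envelope: SUN1, SUN2, WIP1, WIP2, WIP3, WIT1, WIT2, NEAP1, NEAP2 and NEAP3. They were taken by locus identifier as genes whose proteins are known to sit at the envelope, with no measured value in the rule, though other results of these data were known when the list was made. They are 10 of the 27432 nuclear protein-coding genes of the RefSeq gene table. Peaks of chromatin immunoprecipitation followed by sequencing (ChIP-seq) were looked for in each gene and within 1 kb of it. The material was whole seedlings of Arabidopsis thaliana, 7 days after germination, with 2 replicates of each pulldown. In the GBPL3-GFP samples, the gbpl3-5 mutant carried a genomic AtGBPL3 fragment with a GFP tag under its own promoter (the line labelled comp2). In the H2B-GFP samples, a Col-0 line carried AtH2B with a GFP tag under the 35S promoter, a strong viral promoter active in most tissues. Both fusions were pulled down with the same GFP-binding resin (GFP-Trap), so both groups share the tag and the resin, while genotype and promoter differ between them. Each fusion is represented by a single line, and whole seedlings mix all cell types. The labels do not say whether replicates were separate cultures, so differences between replicates may be technical.

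The nuclear envelope is a double membrane. SUN proteins sit in its inner membrane and reach with their SUN domain into the space between the membranes, where they hold the tails of KASH proteins of the outer membrane. In plants WIP proteins are such KASH proteins, WIT proteins are their partners at the outer membrane, and together they join the nucleus to the cytoskeleton, hold RanGAP at the envelope and are needed for nuclear shape and movement. NEAP proteins are coiled-coil proteins of the inner side that bind each other and SUN proteins. AtGBPL3 is a large GTPase that the series links to envelope formation and silencing at the nuclear periphery. H2B is a histone of the nucleosome core and so is present on chromatin in general. A peak at one of these genes is a stretch that the authors' caller placed above its background in that pulldown. It says nothing of the protein that the gene encodes, and a gene without a peak may also have come down with the fusion. No sample was a pulldown of GFP alone or from an untagged line, so DNA carried over by the resin cannot be told from DNA bound by the fusion.

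The GBPL3-GFP lists held 87 and 81 nuclear peaks in replicates 1 and 2, and the H2B-GFP lists held 1361 and 8608. The strength of a peak is given here by its fold enrichment (the caller's ratio of the summit to the background around it) and by its −log10 q, both the authors' values for that peak within its own list. The median −log10 q was 41.5 and 43.6 in the GBPL3-GFP lists, and 2.18 and 2.62 in the H2B-GFP lists. Sequencing depth is unknown for all 4 libraries, so a gene without a peak is a gene where no peak was called. With 2 libraries of each fusion, the smallest 2-sided p of an exact permutation test is 0.33, and no test between the fusions was made.

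None of the 10 genes had a GBPL3-GFP peak in its body or within 1 kb, in either replicate. The background is low: 0.0583% of all protein-coding genes had a GBPL3-GFP peak in the body in replicate 1 and 0.0911% in replicate 2, with 0.051% hit in both. Within 1 kb the shares were 0.0693% and 0.109%. For H2B-GFP, 2 of the 10 had a peak in the body in replicate 1 (SUN1 and WIP1), where 4.08% of all protein-coding genes did. In replicate 2, 3 of the 10 did (WIP1, WIT1 and WIT2), where 25.2% of all protein-coding genes did. In either replicate, 4 of the 10 had a peak in the body, against 26.1% of all protein-coding genes. WIP1 was the only gene of the 10 with an H2B-GFP peak in both replicates, as 3.13% of all protein-coding genes had. With 1 kb to either side, SUN2 joined in H2B-GFP replicate 2, which made 4 of 10 against 34.8% of all protein-coding genes. The count in replicate 1 stayed at 2, against 5.99%. WIP2, WIP3, NEAP1, NEAP2 and NEAP3 had no peak in the body or within 1 kb in any of the 4 lists.

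**Figure D1:**
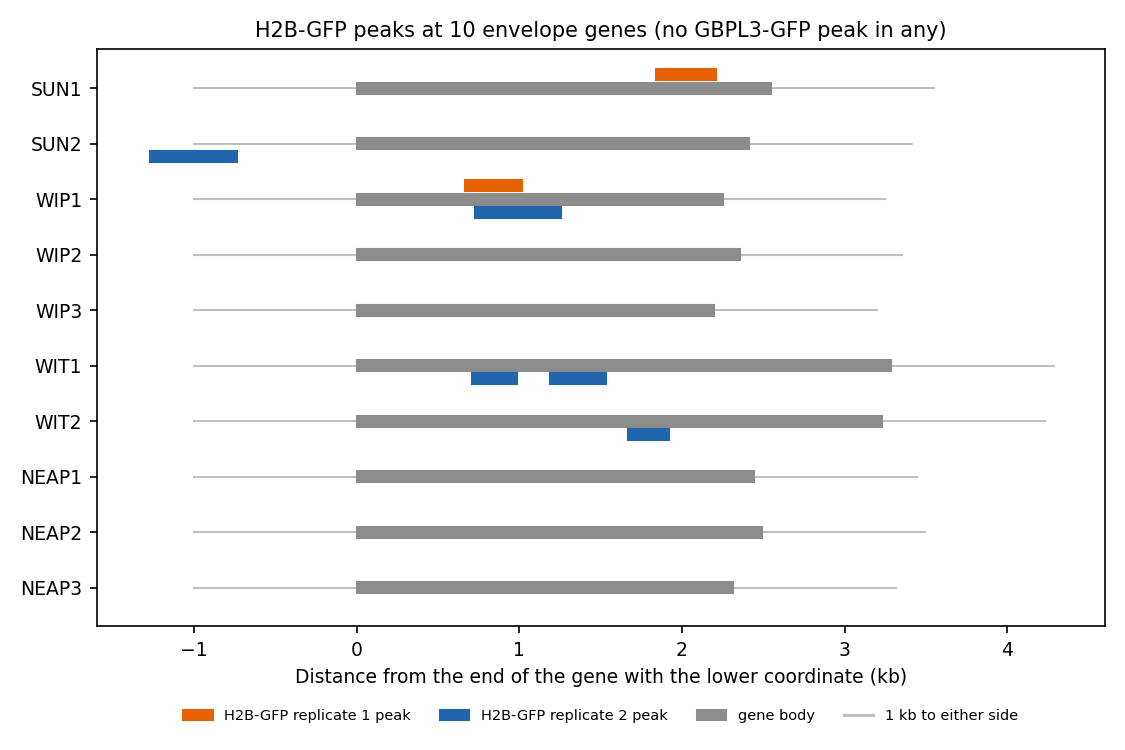
Map of the 10 genes drawn to scale, in kb from the end of each gene with the lower coordinate, with H2B-GFP replicate 1 peaks above the gene, replicate 2 peaks below it and a thin line for 1 kb to either side. SUN1 carries a replicate 1 peak, WIT1 and WIT2 carry replicate 2 peaks, WIP1 carries overlapping peaks of both, SUN2 has a replicate 2 peak beside it, and the other 5 genes are empty.

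Longer genes had an H2B-GFP peak more often, so the counts were also set against genes of like length. The 10 genes are 2197 to 3286 bp long in the gene table, with a median of 2429 bp, and 13395 protein-coding genes lie within 20% of the length of at least 1 of them. In H2B-GFP replicate 2, 9.89% of genes up to 1000 bp had a peak in the body, against 29.6% of those over 2000 and up to 3000 bp and 31.7% of those over 3000 and up to 4000 bp. Among genes of like length, GBPL3-GFP peaks lay in the body of 0.0597% in replicate 1 and 0.0896% in replicate 2, and of 0.0448% in both. Within 1 kb these shares were the same 0.0597% and 0.0896%. With peaks this rare, a share lower than the background could not be seen in 10 genes. H2B-GFP peaks lay in the body of 4.74% of the genes of like length in replicate 1, beside the 2 of 10 (exact Clopper-Pearson 95% interval of the share 2.52 to 55.6%). In replicate 2 they lay in 29.8%, beside the 3 of 10 (6.67 to 65.2%). A peak in each replicate was found in 3.55% of the genes of like length, beside the 1 of 10 (0.253 to 44.5%), and a peak in either in 31%, beside the 4 of 10. For H2B-GFP within 1 kb the shares were 6.9% in replicate 1 and 39.5% in replicate 2, beside 2 and 4 of 10 (12.2 to 73.8% for the 4). These intervals cover counting error only and treat genes as independent. The 10 genes are a chosen list and not a random sample, so the intervals are no test against the background shares. The replicate 2 counts sit at the background, and the replicate 1 and shared counts rest on 2 genes and 1 gene.

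**Figure D2:**
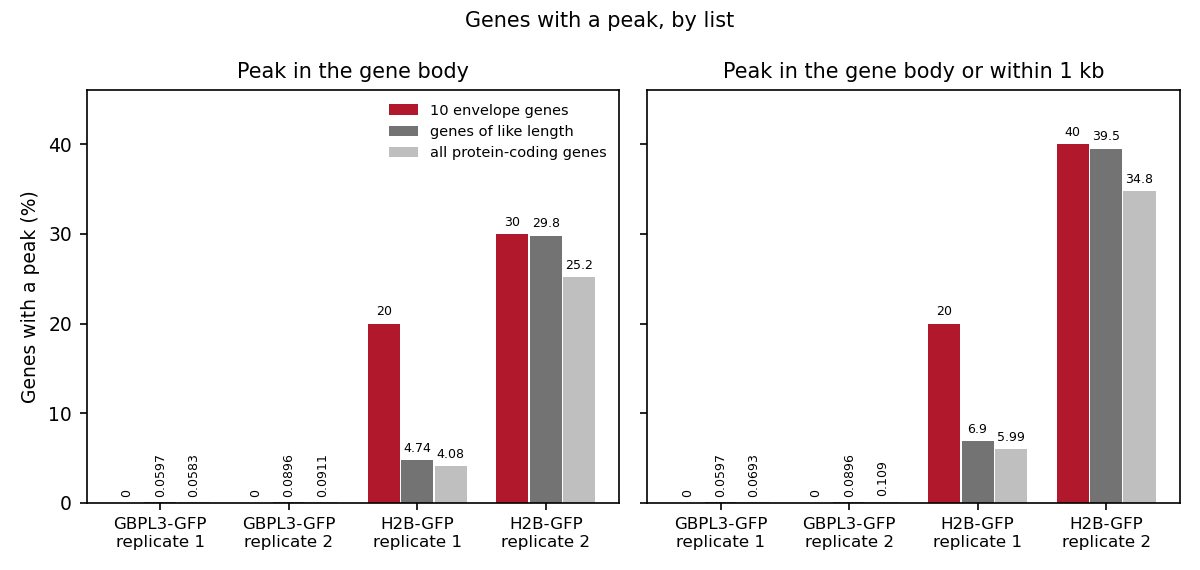
Percent of genes with a peak in the body (left) or in the body or within 1 kb (right), in each of the 4 lists, for the 10 envelope genes, the 13395 protein-coding genes of like length and all 27432 protein-coding genes. In H2B-GFP replicate 2 the bars for the envelope genes (30 and 40%) stand level with those of genes of like length (29.8 and 39.5%), in H2B-GFP replicate 1 they stand at 20% against 4.74 and 6.9%, and in both GBPL3-GFP lists they are at 0.

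SUN1 (AT5G04990) and SUN2 (AT3G10730) encode the inner-membrane anchors of the bridge across the envelope. In SUN1, H2B-GFP replicate 1 had a peak on chromosome 5 (1473322 to 1473693, TAIR10), 372 bp wide and wholly inside the gene. Its fold was 1.72, ranking 1165 of 1361 in the list, and its −log10 q was 1.81, ranking 933. The summit lay at 79.4% of the gene, counted from the end with the lower coordinate, and 524 bp from the nearer end. Of all the peaks in these genes it sat closest to a gene end. It covered 14.6% of SUN1, and the genes of like length with a peak in that list had a median of 14.1% covered. H2B-GFP replicate 2, the longer list, had no peak nearer than 12.9 kb to SUN1, so the replicates differ here. Of the 635 genes of like length with a replicate 1 peak in the body, 475 (74.8%) also had a replicate 2 peak. In SUN2 there was no peak in the body. The nearest was an H2B-GFP replicate 2 peak on chromosome 3 (3357014 to 3357548), 740 bp from the gene and inside the neighbouring gene AT3G10720. It had 2 summits, and its fold was 1.66 (rank 6082 of 8608) with a −log10 q of 2.23 (rank 5330). H2B-GFP replicate 1 came no nearer to SUN2 than 11.9 kb.

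WIP1 (AT4G26455), WIP2 (AT5G56210) and WIP3 (AT3G13360) encode the KASH proteins of the outer membrane that the SUN domains hold. WIP1 carried a peak of each H2B-GFP replicate on chromosome 4. The replicate 1 peak (13365948 to 13366300) was 353 bp wide with a fold of 1.64 and a −log10 q of 1.33. The replicate 2 peak (13366007 to 13366539) was 533 bp wide with a fold of 1.56 and a −log10 q of 1.53. Both were among the weakest of their lists: the −log10 q ranked 1327 of 1361 in replicate 1 and 7618 of 8608 in replicate 2. The peaks shared 294 bp, which is 83.3% of the replicate 1 peak and 55.2% of the replicate 2 peak. Their summits lay 383 bp apart, at 33.1% of the gene in replicate 1 and 50.2% in replicate 2. The peaks covered 15.7% of WIP1 in replicate 1 and 23.7% in replicate 2, where the genes of like length with a peak had medians of 15.8 and 22.9%. WIP2 and WIP3 carried nothing. The H2B-GFP replicate 2 peak nearest to WIP2 lay 6.10 kb away and the one nearest to WIP3 lay 6.17 kb away, and in replicate 1 these distances were 52.1 and 23.1 kb. Of the 3 genes of this family, 1 had a peak in both H2B-GFP replicates and 2 had none. Among genes of like length, 3.55% had a peak in both and 31% in either. With 3 genes, no difference within the family can be read from this.

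WIT1 (AT5G11390) and WIT2 (AT1G68910) encode the partners of the WIP proteins, and WIT2 is known to bind a myosin motor that moves the nucleus. Both genes had H2B-GFP peaks in replicate 2 and none in replicate 1. Of the 3998 genes of like length with a replicate 2 peak in the body, 11.9% also had a replicate 1 peak. WIT1, the longest gene of the 10, held 2 of them on chromosome 5. The first (3634359 to 3634634) had a fold of 1.66 and a −log10 q of 1.82, and the second (3634834 to 3635180) had a fold of 1.67 and a −log10 q of 2.16. A gap of 199 bp parted them, their summits stood at 25.4 and 39.8% of the gene, and together they covered 19.0% of it (median of hit genes of like length 16.5%). Of the genes of like length with a replicate 2 summit in the body, 18.1% had 2 or more such peaks. In WIT2, the peak on chromosome 1 (25909715 to 25909968) was 254 bp wide, the narrowest at these genes. It had a fold of 1.62 and a −log10 q of 1.66, ranking 7243 of 8608, and covered 7.86% of the gene (median 17.0%) with its summit at 55.4%. The nearest H2B-GFP replicate 1 peaks were 71.5 kb from WIT1 and 56.4 kb from WIT2. WIT1 overlaps its neighbour AT5G11400 by 321 bp in the gene table, and neither of its peaks reached that stretch.

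NEAP1 (AT3G05830), NEAP2 (AT5G26770) and NEAP3 (AT1G09470) encode the coiled-coil proteins of the inner side and are listed in the gene table by locus alone. None of the 3 had a peak within 1 kb in any list. The nearest H2B-GFP peak lay 98.5 kb from NEAP1 in replicate 1 and 4.30 kb in replicate 2. For NEAP2 these distances were 49.5 and 7.38 kb. NEAP3 was the only gene of the 10 without a peak in its body that had a replicate 1 peak (5.84 kb) nearer than any replicate 2 peak (19.9 kb). The limit of 1 kb therefore falls in a wide gap: SUN2 at 740 bp is the last gene inside it and NEAP1 at 4.30 kb is the first outside it. NEAP2 was also the only gene of the 10 within 3 Mb of an approximate centromere midpoint, at 2.29 Mb, and 11.6% of all protein-coding genes lie in these pericentromeres. Among genes of like length, H2B-GFP replicate 2 peaks were called in 19.1% of pericentromeric and 30.9% of other genes.

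The strength of the 6 H2B-GFP peaks inside these genes was set beside that of other peaks. The 6 come from only 4 genes, since WIP1 and WIT1 hold 2 each. All 6 had a fold below the median of their list (1.88 in replicate 1 and 1.76 in replicate 2) and a −log10 q below its median. Their folds ran from 1.56 to 1.72 and their −log10 q from 1.33 to 2.16. For all peaks with a summit in genes of like length, the median fold was 1.86 in replicate 1 (quartiles 1.76 and 1.98) and 1.75 in replicate 2 (1.63 and 1.89). The median −log10 q of those peaks was 2.14 in replicate 1 (1.67 and 2.76) and 2.58 in replicate 2 (1.88 and 3.55). By −log10 q, the SUN1 peak (1.81) and the second WIT1 peak (2.16) lay inside these quartiles, and the others lay below them. How often peaks in other genes fall below both medians was not counted, so this place cannot be called particular to these genes. When only peaks with a −log10 q of at least 2 were kept, replicate 1 had none at these genes, where 2.76% of the genes of like length still had one. Replicate 2 then had a single gene, WIT1 with its second peak, where 22.4% of the genes of like length had one. At a −log10 q of at least 5 none was left in either replicate, against 0.142% of the genes of like length in replicate 1 and 3.19% in replicate 2. When replicate 2 was cut to its 1361 strongest peaks, as many as replicate 1 holds, none of the 10 genes was hit, against 5.23% of the genes of like length. The shared peak of WIP1 was therefore lost under each of these 3 limits. The share of genes of like length with a peak in both replicates was not computed under them. Whether this loss is usual is therefore not known.

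**Figure D3:**
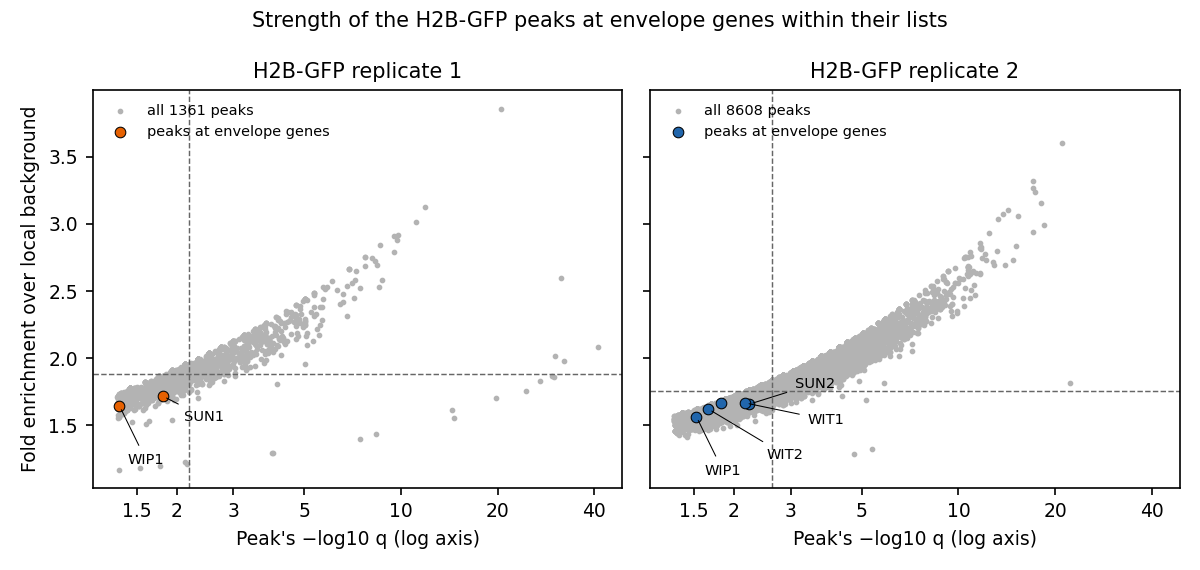
Fold enrichment over the local background against −log10 q (log axis) for every H2B-GFP peak of replicate 1 (left) and replicate 2 (right), with the peaks at SUN1, SUN2, WIP1, WIT1 and WIT2 as large points and dashed lines at the list's medians. All points of the envelope genes lie below and to the left of the medians, with folds from 1.56 to 1.72.

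Within the genes, 5 of the 6 summits lay in the middle 50% of the gene length, and the exception was SUN1. Among peaks with a summit in genes of like length, 61.4% in replicate 1 and 56.5% in replicate 2 lay in that middle part. The gene table gives no strand, so it is not known here which end of a gene is its start. Over the 10 genes, the mean share of the body under H2B-GFP peaks was 3.03% ± 6.39 in replicate 1 and 5.05% ± 8.99 in replicate 2 (SD over 10 genes, which are not replicates), and it was 0 in both GBPL3-GFP lists. The 17 genes that lie within 1 kb of the 10 had no GBPL3-GFP peak and no H2B-GFP replicate 1 peak in their bodies. In H2B-GFP replicate 2, 2 of the 17 had one, AT3G10720 beside SUN2 and AT4G26450 beside WIP1, where 25.2% of all protein-coding genes had one. The peak in AT3G10720 is the one already counted within 1 kb of SUN2. The 17 include a long non-coding RNA gene (AT5G08435) and a tRNA gene (AT3G05835), and they were not matched for length to that background.

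Distances to the nearest peak were also measured. The nearest GBPL3-GFP peak lay between 0.352 and 10.8 Mb away in replicate 1 and between 0.380 and 6.56 Mb in replicate 2, with medians of 2983 and 1925 kb, where genes of like length had medians of 3399 and 2434 kb. WIT1 came closest. In replicate 1 its nearest peak was on chromosome 5 (3988826 to 3989095, fold 3.27), 352 kb away in AT5G12330. In replicate 2 it was a different peak (3253098 to 3253320, fold 2.62), 380 kb away in AT5G10340. NEAP2, the gene nearest to a centromere, was 1.77 Mb from the nearest GBPL3-GFP peak in both replicates, about as far as SUN1 (1.78 Mb) and NEAP3 (1.75 Mb) in the arms. The median distance to an H2B-GFP peak was 36.3 kb in replicate 1 and 5.20 kb in replicate 2, against 26.2 and 2.17 kb for genes of like length. Within 50 kb of the gene on either side, H2B-GFP replicate 2 had 5 to 12 peaks at each of the 10 (median 8.5, against 9 for genes of like length), with WIT2 the lowest and WIP3 the highest. H2B-GFP replicate 1 had 0 to 4 there (median 1 for both sets of genes), and neither GBPL3-GFP list had any at the 10, as at most genes of like length (median 0, quartiles 0 and 0). WIP3 thus had the most replicate 2 peaks around it and none inside or within 1 kb.

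**Figure D4:**
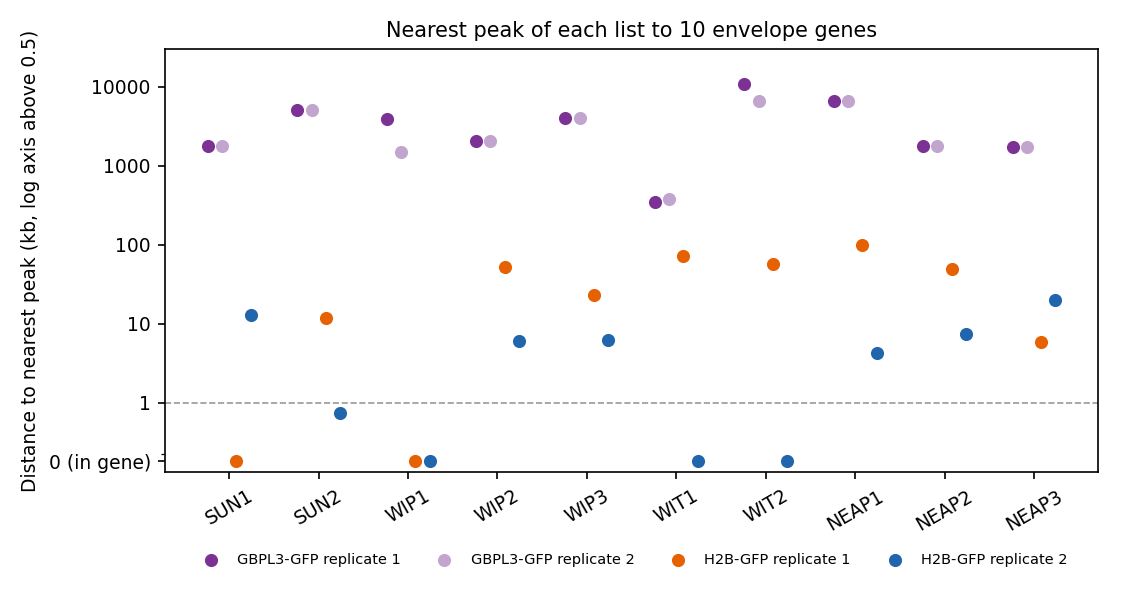
Distance in kb (log axis above 0.5 kb) from each of the 10 genes to the nearest peak of each list, with 0 for a peak in the gene and a dashed line at 1 kb. GBPL3-GFP points lie at 352 kb or more for every gene, and H2B-GFP points lie at 98.5 kb or less for every gene.

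Other genes of the envelope were counted in the same way. In GBPL3-GFP replicate 1, no gene body was hit among 3 other SUN genes, 4 SINE genes (outer-membrane KASH proteins), 5 CRWN and KAKU4 genes (lamina-like proteins), the 2 RanGAP genes and 33 nuclear pore genes. In GBPL3-GFP replicate 2, 1 of the 5 CRWN and KAKU4 genes was hit (CRWN4, AT5G65770) and none of the others, where 0.169% of protein-coding genes over 4000 and up to 6000 bp were hit and these 5 genes have a median length of 4843 bp. CRWN4 was also hit in H2B-GFP replicate 2, as were 33.0% of protein-coding genes of that length range. Whether the peaks of these lists lie at the same place in CRWN4 was not examined. In H2B-GFP replicate 1, 2 of the 33 nuclear pore genes (6.06%) were hit, against 6.88% of protein-coding genes over 4000 and up to 6000 bp, and none in the other 4 lists. In H2B-GFP replicate 2 the counts were 1 of 3 other SUN genes, 0 of 4 SINE genes, 2 of 5 CRWN and KAKU4 genes, 0 of 2 RanGAP genes and 12 of 33 nuclear pore genes (36.4%). The other SUN, SINE and RanGAP genes have median lengths of 2901, 2845 and 2524.5 bp. In that list 29.6% of protein-coding genes over 2000 and up to 3000 bp were hit, so a count of 0 among so few genes is not informative. The CRWN and KAKU4 genes and the pore genes are longer, the latter with a median of 4999 bp. In the same list 33.0% of protein-coding genes over 4000 and up to 6000 bp were hit.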

How the data were processed

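The data are 4 peak lists, 1 for each pulldown sample, and the 4 input samples were not analysed here. BWA 0.7.12, MACS2 2.1.0 and the build TAIR10 were used, per the submitters' processing notes, with the caller's options and control not given in the sources used here. Every deposited list gives a peak's fold enrichment (a linear ratio over the local background), its −log10 p and −log10 q and a score equal to 10 times the −log10 q, all as the authors' caller made them. From these, lines with the same start and end were joined into 1 peak, and peaks of organelle chromosomes were not used. A joined peak took the highest fold and the highest −log10 q of its lines, each on its own. Its summit was that of the line with the highest −log10 q. Replicates could be compared because peaks were called per sample.

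Genes came from a RefSeq table of the assembly TAIR10.1, without strand or exons. Its fit to the peaks was checked: 92.7% of the H2B-GFP replicate 2 summits lay in protein-coding genes, against 64.4% after a shift of 10 kb. All 10 identifiers were found, NEAP genes by locus. An overlap of at least 1 bp counted as a peak in a gene. Coordinates are those of the peaks, counted from 1. Pericentromeres are 3 Mb to either side of approximate midpoints. Computations used Python 3.11.15, pandas 2.3.3 and scipy 1.17.1, and the counting was tested on simulated data. No test was made: counts are set beside those of all genes and of genes of like length. The named genes are the 10 members. The rule for the members uses no measured value, but the members, lists and limits were chosen with earlier results of these data known. The alternatives were other overlap rules, q limits, windows, length limits and leaving out each replicate.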

Additional observations from a re-analysis of the deposited data

How the results depend on the processing

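Counting a peak by its summit, or only where at least 50% of it lay in the gene or window, kept every count of genes with a peak in the body. Within 1 kb, H2B-GFP replicate 2 had 3 genes in place of 4 under both rules, since SUN2 was lost. Windows of 500 bp and 2 kb gave 3 and 4 genes there. Background shares were not computed for the overlap rules, these windows or the q limits within 1 kb. Nor were they computed for the shared counts under any limit on peak strength. All these counts cannot be set against other genes. GBPL3-GFP counts were 0 under every alternative run. The H2B-GFP counts depended on the limit on peak strength. At a −log10 q of at least 2, replicate 1 had 0 genes in the body and 0 within 1 kb, replicate 2 had 1 and 2, and both replicates shared 0. At a −log10 q of at least 5, all of these were 0, and with replicate 2 cut to the length of replicate 1 the replicate 2 and shared counts were 0. Genes with an H2B-GFP peak in either replicate numbered 4, and 2 to 3 when a replicate was left out (2, SUN1 and WIP1, without replicate 2). The share of genes of like length with an H2B-GFP replicate 2 peak was 29.7% and 28.4% with lengths within 10 and 40%, and 30.9% outside pericentromeres. The shares at the q limits and for the shortened list were added after seeing the data. No paired analysis was possible because the results come from no test. Depth is unknown, so peaks just under the authors' threshold cannot be told from none.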
